A study of Mus musculus with 2 samples.

Results

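The genes described here are the matrix metalloproteinases (Mmp), the membrane-bound Adam proteases, the secreted Adamts proteases and the tissue inhibitors of metalloproteinases (Timp). The rule that picks them uses the gene symbol and no measured value, although the families were taken up with earlier results of these data known, and 78 of the 23284 genes in the authors' deposited table matched: 23 Mmp, 32 Adam, 19 Adamts and 4 Timp genes. The table compares 2 RNA-seq libraries of macrophages from infarcted hearts of C57BL/6 mice, 1 library of Ly6Chi cells and 1 library of Ly6Clo cells. Both were collected 3 days after the left anterior descending coronary artery was ligated. Ly6C is a surface antigen used to sort mouse monocytes and macrophages: classical monocytes and their recent progeny carry much of it. The sources used here do not give the sorting gates, the animals' age or sex, or how many animals each library pooled, and neither group is an uninjured control.

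MMPs are zinc-dependent endopeptidases that are made as inactive precursors and cut collagens, elastin and other matrix proteins, as well as chemokines and cytokines. ADAM proteins pair a metalloprotease domain with a disintegrin domain and shed the outer parts of membrane proteins such as tumour necrosis factor. ADAMTS enzymes are their secreted relatives, which cut proteoglycans and procollagens, and TIMPs block the active site of these enzymes. After a myocardial infarct, matrix proteolysis clears the damaged wall before scar collagen is laid down, and infiltrating leukocytes are among its sources.

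Each gene has a signed statistic from the authors' comparison of the libraries, a score with no stated unit or formula, and a rank by the size of that score. The per-library columns are headed by codes that cannot be matched to either sample, and they were left unused. Which population a positive or a negative statistic belongs to is therefore not known, and results are stated by side. As a landmark, the sort marker gene Ly6c2 stood at -1.78 in the authors' deposited table and so lay on the negative side. The statistic is treated neither as a fold change nor as an expression level, and the depth behind it is unknown here. Since each population was sequenced as 1 library, no replicate error or test can be given, and every difference between genes below is a description of these 2 libraries. Fewer cells of a type in a sorted population and less RNA per cell cannot be told apart.

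The 10 Mmp genes that lie side by side on chromosome 9 span 427.1 kb on mm10 and hold members from both sides of the comparison, so their start regions are shown first. Each sequence is the 250 bases before a RefSeq start site (build GRCm38.p6, the assembly of mm10), written 5′ to 3′ on the strand of the gene. Capitals mark letters that match one of 3 searched motifs, read on both strands: AP-1 (TGANTCA), the PU.1 core (GAGGAA) and the TATA box (TATAAA). No match of one motif overlaps that of another in these windows. The 7 genes shown are those of the array with a statistic other than 0, and Mmp12 has a pair of annotated starts.
Mmp13 (chr9:7272264-7272513, plus strand): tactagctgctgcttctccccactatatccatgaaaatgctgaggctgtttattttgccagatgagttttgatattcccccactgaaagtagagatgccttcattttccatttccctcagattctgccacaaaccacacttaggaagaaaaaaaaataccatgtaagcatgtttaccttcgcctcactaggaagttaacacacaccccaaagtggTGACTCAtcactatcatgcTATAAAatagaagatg
Mmp12 first start (chr9:7344147-7344396, plus strand): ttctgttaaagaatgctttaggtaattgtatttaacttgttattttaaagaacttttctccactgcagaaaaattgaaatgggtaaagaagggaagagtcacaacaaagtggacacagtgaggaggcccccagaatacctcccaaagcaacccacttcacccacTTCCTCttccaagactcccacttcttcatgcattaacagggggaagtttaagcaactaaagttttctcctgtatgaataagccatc
Mmp12 second start (chr9:7347124-7347373, plus strand): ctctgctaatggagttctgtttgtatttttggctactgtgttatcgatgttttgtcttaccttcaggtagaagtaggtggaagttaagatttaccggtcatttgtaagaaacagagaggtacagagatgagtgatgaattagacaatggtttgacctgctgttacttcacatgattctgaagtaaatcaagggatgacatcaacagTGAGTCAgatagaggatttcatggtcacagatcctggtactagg
Mmp1b (chr9:7388027-7388276, minus strand): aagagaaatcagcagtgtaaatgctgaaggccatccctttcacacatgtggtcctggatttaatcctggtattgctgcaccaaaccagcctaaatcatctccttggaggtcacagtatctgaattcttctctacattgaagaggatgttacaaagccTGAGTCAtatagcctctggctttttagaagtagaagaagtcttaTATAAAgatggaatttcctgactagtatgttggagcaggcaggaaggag
Mmp3 (chr9:7445572-7445821, plus strand): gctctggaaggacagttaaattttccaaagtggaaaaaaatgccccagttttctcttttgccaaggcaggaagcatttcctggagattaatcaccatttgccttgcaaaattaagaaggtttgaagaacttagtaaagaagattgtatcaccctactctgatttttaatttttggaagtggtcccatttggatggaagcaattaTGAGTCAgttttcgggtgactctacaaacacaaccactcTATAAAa
Mmp10 (chr9:7502092-7502341, plus strand): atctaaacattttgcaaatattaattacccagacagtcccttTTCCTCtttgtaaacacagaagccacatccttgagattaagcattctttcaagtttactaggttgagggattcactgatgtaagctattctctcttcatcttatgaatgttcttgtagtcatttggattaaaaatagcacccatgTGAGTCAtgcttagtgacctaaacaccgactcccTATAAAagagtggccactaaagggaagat
Mmp8 (chr9:7558179-7558428, plus strand): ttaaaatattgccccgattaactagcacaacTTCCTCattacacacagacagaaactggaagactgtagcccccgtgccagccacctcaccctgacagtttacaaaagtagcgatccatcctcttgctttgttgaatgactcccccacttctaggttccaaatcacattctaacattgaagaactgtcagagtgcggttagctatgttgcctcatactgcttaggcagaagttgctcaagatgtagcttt
Mmp27 (chr9:7571146-7571395, plus strand): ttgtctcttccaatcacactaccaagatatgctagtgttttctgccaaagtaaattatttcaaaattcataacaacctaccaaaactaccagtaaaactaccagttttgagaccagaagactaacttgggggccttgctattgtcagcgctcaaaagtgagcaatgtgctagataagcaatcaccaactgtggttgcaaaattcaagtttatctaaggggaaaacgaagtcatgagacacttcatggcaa

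AP-1 letters stood before at least 1 start of 8 of the 10 array genes, against 7.82% of all 27025 genes with a window and 3 of the 38 other protease and inhibitor genes with one. Only 48 of the 78 genes had a window. Among those without one, and so not searched, were Mmp9, Mmp2, Mmp19, Adam11, Adam12, Adamts4 and Adamts5. In Mmp13 the match was TGACTCA, 35 to 29 bases before the start. In Mmp3 it was TGAGTCA, 46 to 40 bases before the start. Mmp10 carried TGAGTCA 63 to 57 bases before its start, Mmp1b 93 to 87 bases before, and Mmp12 44 to 38 bases before the second of its starts. The array genes without these letters in the window were Mmp8 and Mmp27, which were also the 2 array genes on the negative side. Of those with the letters, Mmp1a, Mmp20 and Mmp7 were listed at 0, and Mmp13 and Mmp10 were under 0.1. A link between the letters and the side of a gene was not tested. The TATA box stood in windows of 7 of the 10 array genes, against 14.3% of all genes, and was missing from those of Mmp12, Mmp8 and Mmp27. The PU.1 core, bound by a factor that myeloid cells depend on, was found for 4 of the 10 array genes, Mmp8 and Mmp12 among them, against 25.9% of all genes. A match is a description of the sequence and not evidence of binding, and a missing match says only that these letters are not in the 250 bases searched.

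Along the array, Mmp12, Mmp1b and Mmp3 had positive scores of at least 0.1, and Mmp8 and Mmp27, further along, had negative ones. Mmp12, which encodes macrophage metalloelastase (chromosome 9, 7344397 to 7360461), had 0.73 in the authors' deposited table, the highest statistic of the array. Mmp3, the gene of stromelysin-1, had 0.37 in the authors' deposited table, and Mmp1b, a rodent relative of interstitial collagenase, had 0.22. Mmp13, the main interstitial collagenase of rodents, stood at 0.083 and the stromelysin gene Mmp10 at 0.029 in the authors' deposited table. Thus 5 of the 10 array genes were positive, and only Mmp12 among them passed 0.5 (3.77% of all genes did). Mmp8, the neutrophil collagenase gene (chromosome 9, 7558429 to 7568486), was placed at rank 182 by the authors' deposited table, with -0.998. Its neighbour Mmp27, which starts 2.91 kb beyond the end of Mmp8, had -0.41 in the authors' deposited table. Mmp1a, Mmp20 and Mmp7 were listed at exactly 0 in the authors' deposited table. An exon of Mmp12 and one of Mmp1b overlap on opposite strands over 157 bases, which is 2.17% of the exonic length of Mmp12 and 10.8% of that of Mmp1b. The counting is not stated to use strand, so reads from that stretch cannot be told apart. The statistic of Mmp1b was shared exactly by 42 genes of the table, itself included, that of Mmp3 by 7 and that of Mmp10 by 358. The values of Mmp10 and Mmp13 are under 0.1 and are not read as differences.

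**Figure D1:**
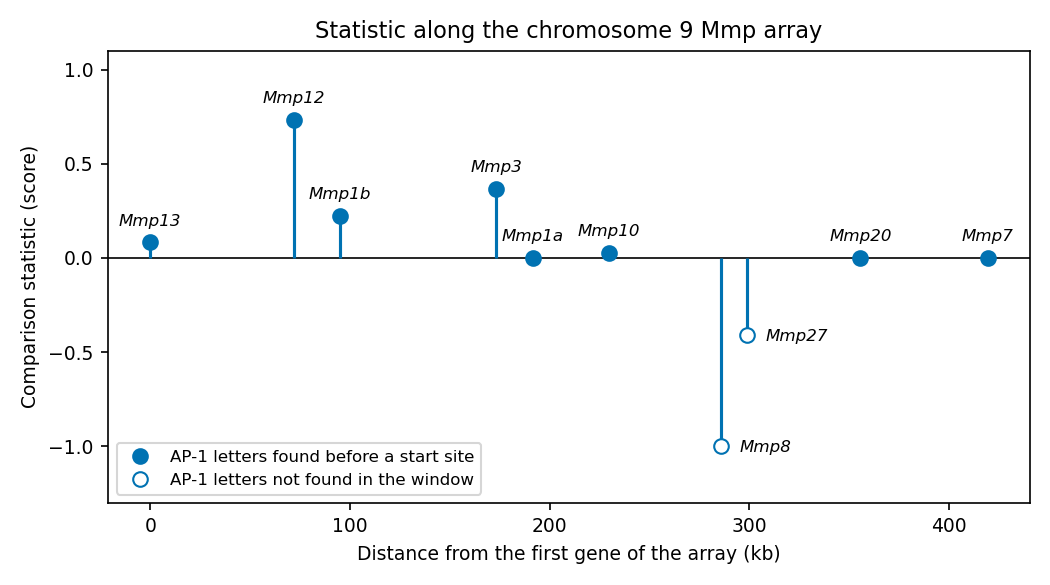
Comparison statistic (vertical axis, score) of the 10 chromosome 9 Mmp genes against distance from the start of Mmp13 (horizontal axis, kb), 1 point per gene, with filled points where AP-1 letters were found before a start. Mmp12 at 0.73 is the highest point, and the open points Mmp8 and Mmp27 are the only points below 0. The filled points Mmp1a, Mmp20 and Mmp7 lie at 0.

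Across all 78 genes, 42 were positive, 16 negative and 20 listed at exactly 0 in the authors' deposited table. The share listed at 0 was 25.6%, against 30% of all genes. At a size of at least 0.5, the threshold used to call a gene, 11 were positive (14.1% of the 78, against 3.77% of all genes) and 3 negative (3.85%, against 0.988% of all genes). The median of the 58 genes with a value other than 0 was 0.076, against 0.0051 over the 16302 such genes of the authors' deposited table. Of those 58, 72.4% were positive, against 57.7% over the whole table. These shares describe the families as they stand in the table and carry no error. With the threshold at 1, the positive side held 2 genes, Mmp9 and Mmp25 (0.709% of all genes), and the negative side 0 (0.0644% of all genes). At 0.25, 20 of the 78 were positive (9.9% of all genes) and 4 of the 78 negative (4.66% of all genes). The negative count at 0.25 was thus near the share of all genes. Of the 3 called negative genes, Mmp19 and Adam8 have exons that overlap those of another gene, and without such genes 1 was left, Mmp8. None of the 14 called genes shared its exact statistic with another gene, against 7.22% of all genes of that size. Of the 21 with a size from 0.1 up to 0.5, 12 shared it, against 28.5% of all genes of that size. Of the 23 that were smaller but not 0, 16 shared it, against 45.7% of all such genes. Single small values are therefore not read as differences.

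**Figure D2:**
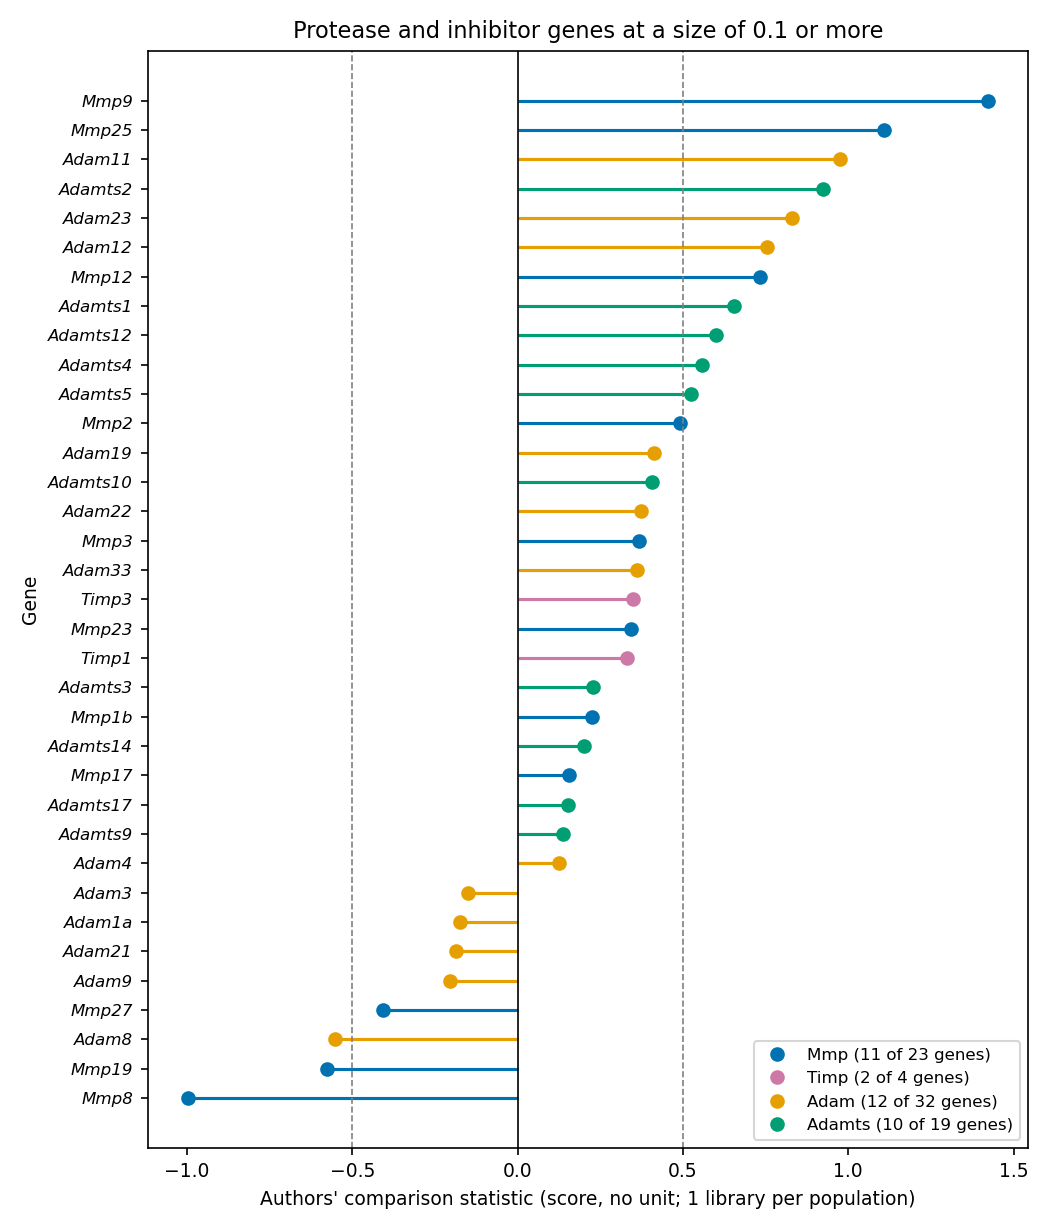
Comparison statistic (horizontal axis, score) of the 35 protease and inhibitor genes with a size of at least 0.1, 1 point per gene, coloured by family, with dashed lines at 0.5 and -0.5. Mmp9 at 1.42 and Mmp8 at -0.998 lie at either end, and 11 points lie beyond 0.5 against 3 beyond -0.5.

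Of the 23 Mmp genes, 13 were positive, 7 negative and 3 listed at 0, and 3 were called on the positive side (13.0%, against 3.77% of all genes) and 2 on the negative (8.7%, against 0.988%). Their median statistic was 0.063 over the 20 genes other than 0. The gelatinase genes were both positive. Mmp9, which encodes gelatinase B, a product of neutrophils and macrophages that cuts denatured collagen, led all 78 genes in the authors' deposited table at rank 59, with a statistic of 1.42. Its locus is chromosome 2, 164940326 to 164955850. Mmp2, the gene of gelatinase A, which fibroblasts and other stromal cells make, had 0.49 in the authors' deposited table, just under the threshold. The 4 collagenase genes did not share a side, and the authors' deposited table gave -0.998 for Mmp8, 0.22 for Mmp1b, 0.083 for Mmp13 and 0 for Mmp1a. Lcn2, whose protein binds MMP9 in neutrophils, had -0.40 in the authors' deposited table.

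Among the 6 membrane-anchored MMP genes only Mmp25 was called, on the positive side (3.77% of all genes were). Mmp25, which encodes a lipid-anchored leukocyte MMP (chromosome 17, 23628315 to 23645269), reached rank 131 of the authors' deposited table with 1.11. Mmp17, the gene of the other lipid-anchored MMP, had 0.15 in the authors' deposited table, a value shared by 18 genes. Mmp14, whose product activates MMP2 at the cell surface and is itself a collagenase, had 0.0038 in the authors' deposited table, and no other gene shared that value. The other three of this class, Mmp15, Mmp16 and Mmp24, lay between -0.070 and 0.072 in the authors' deposited table.

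Of the 6 Mmp genes that are neither collagenases, gelatinases, stromelysins, matrilysin, metalloelastase nor membrane-anchored in this grouping, 4 were negative, 1 positive and 1 listed at 0. The authors' deposited table put Mmp19, an MMP of macrophages and vessels, at -0.58 and rank 830. Exons of Tmem198b and of the antisense gene Gm47093 on the opposite strand overlap 28.3% of its exonic length, so its value is uncertain. Mmp23 stood at 0.34 in the authors' deposited table, a value that 4 genes shared.

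The Timp genes were few and none was called, against 4.76% of all genes on either side. Timp3, which encodes an inhibitor held in the matrix that also blocks ADAM proteases, had 0.35 in the authors' deposited table, and 21.3% of its exonic length overlaps exons of Syn3 on the opposite strand. Timp1, an inducible secreted inhibitor with high affinity for MMP9, had 0.33 in the authors' deposited table. Timp2, the partner of MMP14 in the activation of MMP2, had -0.041 in the authors' deposited table, and Timp4, an inhibitor expressed in heart muscle, was listed at 0. Timp1 and Timp3 thus lay on the side of Mmp9 and Mmp2, at smaller scores than either.

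Of the 32 Adam genes, 12 were positive, 7 negative and 13 listed at 0, with a median of 0.032 over the 19 other than 0 in the authors' deposited table. Called were 3 on the positive side (9.38%, against 3.77% of all genes) and 1 on the negative (3.12%, against 0.988%). The 9 protease-active genes of somatic tissues divided 6 to 3. Adam12, a sheddase gene of fibroblasts and muscle precursors, had 0.75 in the authors' deposited table. Adam19, a gene of a neuregulin sheddase, and Adam33, a protease gene of mesenchymal cells, had 0.41 and 0.36 in the authors' deposited table. On the other side, Adam8, a leukocyte sheddase gene (chromosome 7, 139978932 to 139995207), took rank 905 of the authors' deposited table with -0.55, and 0.992% of its exonic length overlaps a non-coding gene. The authors' deposited table gave Adam9, a broadly expressed sheddase gene, -0.21. The best-known sheddases scored near 0: Adam17, which releases tumour necrosis factor, had 0.032, and Adam10, which cuts Notch receptors and several chemokines, had 0.0050, in the authors' deposited table. Adam15 stood at -0.043 in the authors' deposited table, with 20.6% of its exonic length overlapped by an antisense gene.

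All 3 neural ADAM genes, whose proteins lack protease activity and act in adhesion and synapse organisation, were positive. The authors' deposited table gave Adam11 (chromosome 11, 102761413 to 102780263) a statistic of 0.97 and rank 201. Adam23 (chromosome 1, 63445717 to 63596111) stood at rank 339 of the authors' deposited table with 0.83, and Adam22 had 0.37. No gene of the table shared any of these scores, and no other annotated exon overlaps the exons of these genes. Of the 20 Adam genes known mainly from the reproductive tract, 13 were listed at 0 (65%, against 30% of all genes), 3 were positive and 4 negative. None was called, against 4.76% of all genes on either side. The values of Adam4 at 0.13, Adam3 at -0.15 and Adam21 at -0.19 in the authors' deposited table were shared by 12, 11 and 9 genes. Adam1a, at -0.17 in the authors' deposited table, overlaps exons of other genes over 63.7% of its exonic length.

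Of the 19 Adamts genes, 15 were positive, 1 negative and 3 listed at 0, but 5 of the positive genes and the negative one were under 0.1 in size. Of the 16 genes other than 0, 93.8% were positive, against 57.7% over the whole table, and the median computed from the authors' deposited table was 0.18. In all, 5 of the 19 were called, each on the positive side (26.3%, against 3.77% of all genes). Adamts2, whose product trims the amino-terminal propeptide from fibrillar procollagens, led the family in the authors' deposited table with 0.92, at rank 235. The gene spans chromosome 11, 50602085 to 50807573. The related procollagen-processing genes Adamts3 and Adamts14 had 0.23 and 0.20 in the authors' deposited table, at scores that 17 and 13 genes shared.

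The 7 genes of proteoglycan-cleaving Adamts enzymes, which cut versican and aggrecan, were all positive and 3 were called (3.77% of all genes were). Another 3, Adamts8, Adamts15 and Adamts20, were under 0.1 and are not read as differences. Adamts1 had 0.65, Adamts4 had 0.56 and Adamts5 had 0.53 in the authors' deposited table. Adamts1 and Adamts5 are neighbours on chromosome 16, 55.04 kb apart with no annotated protein-coding gene between them. Adamts9 had 0.14 in the authors' deposited table, and the smallest score of the class, 2.42e-06 for Adamts20, was shared by 841 genes. Adamts12, a protease gene of mesenchymal cells, had 0.60 in the authors' deposited table, and Adamts10, which acts on microfibrils, had 0.41. Adamts17 had 0.15, at a score 75 genes shared, and Adamts13, which cuts von Willebrand factor, had 0.0021 in the authors' deposited table.

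**Figure D3:**
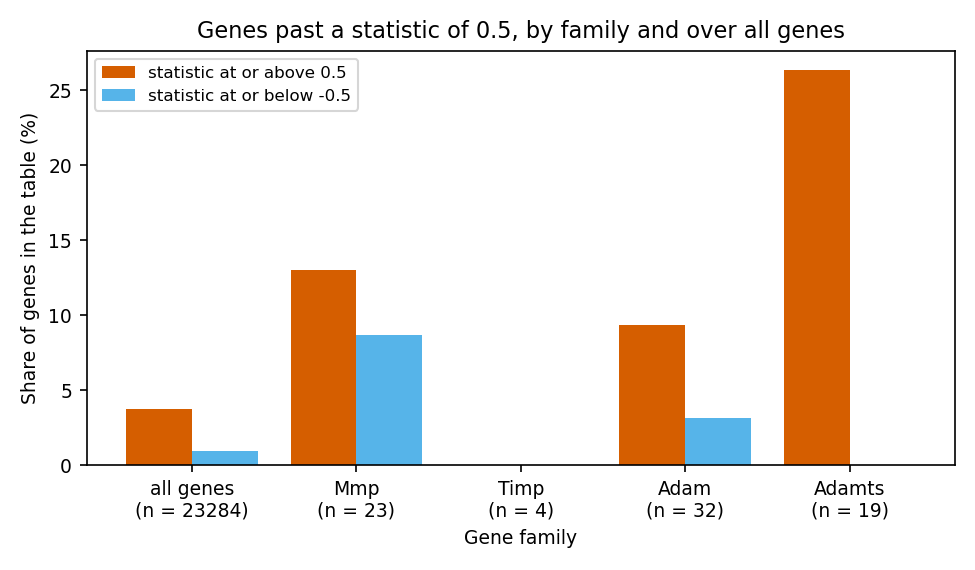
Share of genes (vertical axis, %) with a statistic at or above 0.5 and at or below -0.5, for all 23284 genes and for each family (horizontal axis, n below each name). The share on the positive side is 26.3% for Adamts genes and 3.77% for all genes, and no Timp gene passes either bound.

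The 35 genes that are no inhibitors, were not fixed by name and had a size under 0.1, some of them given above, comprised 19 listed at 0 and 16 with scores between -0.081 for Adamts7 and 0.077 for Adamts6 in the authors' deposited table. Of those 16, 10 were positive and 6 negative. In neighbouring groups of reproductive Adam genes on chromosome 8, Adam24, Adam25 and Adam39 were each listed at 0, as were Adam26a, Adam26b and Adam34. A statistic of 0 does not by itself tell an absent transcript from an equal one. The per-library columns were not read to tell these apart.

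Markers of other cell types lay on the same side as several of these genes. All 10 fibroblast markers were positive, from 0.22 for Tcf21 to 2.14 for Col1a1 in the authors' deposited table. At or above 0.5 were 7 of them, against 3.77% of all genes. Of all genes other than 0, 57.7% were positive. The positive side is also that of Adamts2, Adam12, Adamts12, Adamts5, Mmp2 and Timp3, of which Mmp2 and Timp3 were under 0.5. That side held 42 of the 58 protease and inhibitor genes other than 0, Mmp9, Mmp25, Mmp12, Adam11 and Adam23 among them. Mmp14 at 0.0038 and Timp2 at -0.041 were near 0. All 5 mural cell markers were positive as well, from 0.40 for Rgs5 to 0.89 for Cspg4 in the authors' deposited table. All 7 dendritic cell markers were positive, from 0.24 for Xcr1 to 2.84 for Ccr7 in the authors' deposited table. Of 9 neutrophil markers in the table, 8 had scores from 2.42e-06 for Ngp to 0.54 for S100a8 in the authors' deposited table, and Elane was listed at 0. Only S100a8 reached 0.5, and 3 of the 8 were under 0.1 and are not read as differences. Of the genes linked above to neutrophils, Mmp9 at 1.42 lay on the side of these markers. Mmp8 at -0.998 and Lcn2 at -0.40 lay on the other side. Of 6 macrophage markers, 5 were negative, the lowest being Fcgr1 at -0.79 and the exception Csf1r at 0.25 in the authors' deposited table. The negative side is also that of Mmp8, Mmp19 and Adam8. The macrophage metalloelastase gene Mmp12 at 0.73 and Mmp9 at 1.42 lay on the other side from these 5 markers. Endothelial markers held 3 negative and 2 positive genes, from -0.57 for Kdr to 0.072 for Tek in the authors' deposited table. The part of these cell types in the protease scores was not tested, and without levels per library the labelled cell type could not be checked against its markers.

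Of 20 genes of protease activation and cofactors, 9 were positive, 9 negative and 2 at 0, and the median of the 18 other than 0 was -0.0015. In this list 4 genes were called, each on the positive side (3.77% of all genes were). Plat, the tissue plasminogen activator gene, had 1.23, and Tspan33, which escorts ADAM10 to the cell surface, had 0.81, in the authors' deposited table. Pcsk6, a convertase gene, had 0.68 and the integrin gene Itgb3 had 0.55 in the authors' deposited table. Of 11 genes of protease inhibition and clearance, 7 lay on the positive and 3 on the negative side, and the median of the 10 other than 0 was 0.23. In that list only Lrp1, an endocytic receptor that clears MMPs and ADAMTS enzymes, was called, at -0.76 in the authors' deposited table. Of all genes, 0.988% were called on the negative and 3.77% on the positive side. Serpinb2, a serine protease inhibitor gene of activated macrophages, had 0.42, and the leukocyte protease inhibitor gene Slpi had -0.40, in the authors' deposited table.

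The matrix substrate genes reached from -1.89 to 2.14 and the ADAM shedding substrates from -0.41 to 1.42, against -0.998 to 1.42 for the 78 protease and inhibitor genes. Of 18 ADAM shedding substrates, 12 lay on the positive and 5 on the negative side (median 0.25), and the 5 called were positive (3.77% of all genes were). Cx3cl1 and Cxcl16, the 2 membrane-bound chemokines that ADAM10 and ADAM17 release, had statistics of 1.42 and 0.59 in the authors' deposited table; those sheddases scored near 0. The receptor genes Axl and Cd163 had 0.70 and 0.59 in the authors' deposited table. Of 15 matrix substrates, 10 were positive and 5 negative, a median of 0.38, and 7 called positive and 4 negative (3.77% and 0.988% of all genes). On the side of Adamts2, the authors' deposited table held the genes of fibrillar collagens, with Col1a1 at 2.14, Col3a1 at 2.03 and Col1a2 at 1.99. Vcan, the versican gene, stood at -0.90 in the authors' deposited table, opposite to Adamts1, Adamts4 and Adamts5. The matricellular genes Thbs1 and Spp1 also lay on the negative side, at -1.89 and -1.18 in the authors' deposited table. The collagen genes and Dcn count in both the fibroblast and the matrix list, and Csf1r and Mertk in both the macrophage and the shedding list.

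**Figure D4:**
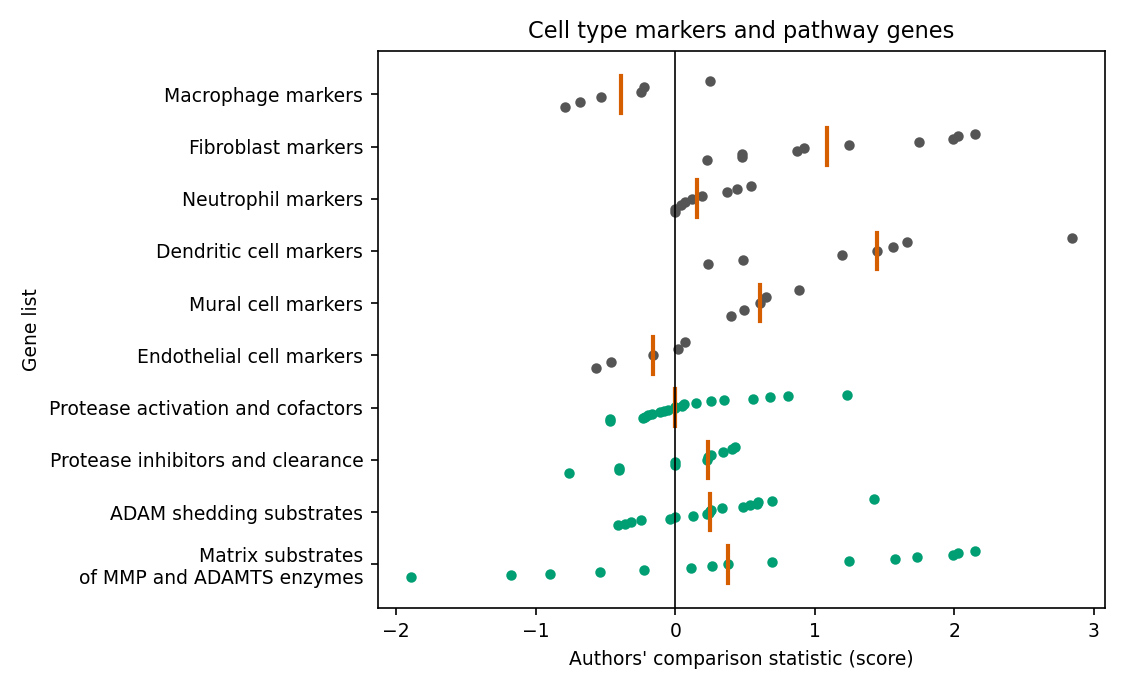
Comparison statistic (horizontal axis, score) of 6 cell type marker lists in grey and 4 pathway lists in green, 1 point per gene, with an orange bar at the median of genes other than 0. All fibroblast, mural and dendritic cell markers lie above 0, 5 of 6 macrophage markers lie below 0, and matrix substrates reach from -1.89 to 2.14.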

How the data were processed

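RNA was sequenced from 1 library of Ly6Chi and 1 library of Ly6Clo macrophages. CASAVA 1.8.2, TopHat and the build mm10 are named in the submitters' processing notes. For the counter, annotation, strand handling and formula of the statistic, the status is: not given in the sources used here. Per gene, the authors deposited a signed comparison statistic, which is a score, and its rank, per the file headers. The rank recomputed from the size of the score matched within 1e-06 for 23284 of 23284 genes. Another 2 columns, headed by codes that match no label, were not used, so levels scaled by library size were not computed.

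Genes were chosen by symbol. The members, classes, lists and thresholds were chosen with earlier results of these data known. Named were all Timp genes, all others with a size of at least 0.1 and 16 well-studied genes fixed by name, 43 in all; of each pathway list, up to 4 genes of largest size, with 1 such gene not reported here. Lcn2, Vcan, Spp1, Csf1r, Mertk, Dcn and single markers (Tcf21, Rgs5, Cspg4, Xcr1, S100a8, Ngp, Elane, Kdr, Tek, Ccr7, Fcgr1), as well as members named among small or zero values, are outside the rule, chosen after their values were seen. Positions came from RefSeq GRCm38.p6 (78 of 78 matched) and exon overlaps from GENCODE M21. Promoter windows matched 48 of 78 genes. Counting and the interval of the median were tested on simulated data. The software was Python 3.11.15 with pandas 2.3.3, NumPy 2.4.6, Matplotlib 3.10.9 and SciPy 1.17.1.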

Additional observations from a re-analysis of the deposited data

How the results depend on the processing

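No paired analysis was possible because there is a single library of each kind, which also means that none can be left out. Raising the threshold from 0.5 to 1 left 2 of the 11 positive genes and 0 of the 3 negative genes. Of all genes, 0.709% and 0.0644% passed 1 on these sides. Lowering the threshold to 0.25 gave 20 positive and 4 negative genes of the 78, against 9.9% and 4.66% of all genes. At 0.25 the negative side was thus near the share of all genes, unlike at 0.5. Without the genes whose exons overlap another gene, an alternative chosen after seeing the data, 9 positive genes and 1 negative gene passed 0.5. The share of all genes after the same exclusion was not computed. Those that left are Mmp12 and Adamts4 on the positive side and Mmp19 and Adam8 on the negative side, so that Mmp8 alone remained there. All 12 alternative medians or means of the 4 families stayed inside the 95% binomial interval of the main median, which for the 3 Timp genes other than 0 is their whole range and covers less than its nominal level. These intervals are wide, and the values moved by over 1.5 times inside them. With the mean, Mmp genes went from 0.063 to 0.14, Adam genes from 0.032 to 0.14 and Adamts genes from 0.18 to 0.28. With genes of size 0.1 or more alone they stood at 0.34, the upper end of the interval, 0.24 and 0.47. With genes at 0 included they stood at 0.029, 0 and 0.14, and Timp genes went from 0.33 to 0.17. The intervals describe the spread among genes and not replicate error. The depth behind each score was not read from the per-library columns and is unknown here, and scores shared by many genes cannot be told apart.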
